A study of Homo sapiens with 6 samples.

Results

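G protein-coupled receptors let a cell read the small molecules around it. Lactate, ketone bodies, succinate, fatty acids, protons, adenosine, nucleotides, prostaglandin E2, catecholamines, lysophosphatidic acid (LPA) and sphingosine 1-phosphate (S1P) each have receptors of this kind. Those that couple to Gs stimulate adenylyl cyclase and raise cAMP, those that couple to Gi inhibit it, and those that couple to Gq release calcium through phospholipase C. GPR81, encoded by HCAR1, is the Gi-coupled receptor for lactate. The 37 receptor genes described here were taken by name from these families, and all 37 have a row among the 26255 gene symbols of the deposited FPKM table.

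RNA was sequenced from MDA-MB-231, a human triple-negative breast cancer line, in 2 groups of 3 libraries. Cells of both groups had been infected with lentivirus and selected with puromycin; shNT cells carried a control shRNA and shGPR81 cells an shRNA against GPR81. The labels and methods do not say which of the study's hairpins the sequenced shGPR81 cells carried, nor whether the replicates were separate cultures, so p-values measure the spread between these libraries. Values are FPKM (fragments scaled by transcript length and library size), and the lowest of them rest on a handful of reads. VIM and CD44, which mark this line, averaged 3552 and 175 FPKM in shNT, and of 4 genes that are low in such lines ESR1, PGR and CDH1 were listed at 0 in all 6 libraries while ERBB2 averaged 11.16 FPKM in shNT and 11.98 in shGPR81. Of 17 markers of adipocytes, immune, endothelial and fibroblast cells, 5 reached the filter on low values and LPL, an adipocyte marker, was the called one (0.853 ± 0.0649 FPKM in shNT, 0.00645 in shGPR81, adjusted p = 0.000932, limma), having passed the filter through the shNT libraries only. The 2 tested immune markers went in opposite directions, with CD14 at means of 3.38 and 1.49 FPKM (adjusted p = 0.0562, limma) and CD68 at 88.9 and 118 FPKM (adjusted p = 0.0691, limma). The other tested markers, KDR and COL1A1, averaged 0.750 and 1.06 FPKM in shNT and 0.860 and 0.640 FPKM in shGPR81. Their part in the results below was not tested. ADIPOQ, LEP, CD3E, MS4A1, CDH5, DCN and LUM were listed at 0 throughout.

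The targeted gene was examined first. HCAR1 was at 0.968, 1.02 and 1.36 FPKM in the shNT libraries and at 0.978, 0.891 and 0.396 FPKM in the libraries labelled shGPR81. The ranges of the groups overlapped, and shGPR81 replicate 3 alone was far below the shNT libraries. The fitted change was -0.57 on the log2 scale (SE 0.31, adjusted p = 0.38, limma with Benjamini-Hochberg adjustment), and it was -0.22 without shGPR81 replicate 3. The FPKM stand for 129 reads in shNT and 92 in shGPR81, a ratio of 0.677 at equal depth (95% Clopper-Pearson interval 0.513 to 0.892, counting error only). A reduction of the target mRNA was thus seen in the pooled reads but did not exceed the spread between libraries. By other assays, RT-qPCR and western blotting, the paper reports significantly less GPR81 in the cells of each of its hairpins. In what follows "shGPR81" means the libraries labelled so.

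HCAR1 has neighbours with nearly the same ligand chemistry. HCAR2, the receptor for 3-hydroxybutyrate and niacin, and HCAR3, the receptor for 3-hydroxyoctanoate, lie beside it on the minus strand of chromosome 12. For HCAR2 a single library, shGPR81 replicate 2, had a value above 0 (0.0369 FPKM). For HCAR3 no library did. Over their coding sequences HCAR2 and HCAR3 were 97.4% identical, and 26.0% of the words of 75 bases (the read length) in the HCAR2 coding sequence occur in that of HCAR3, so some reads cannot be assigned to 1 of them. The HCAR1 coding sequence was 66.9% identical to that of HCAR2 and shared 0 such words with it. A window of 75 coding bases in which HCAR2 and HCAR3 are identical is shown with the aligned part of HCAR1, in GRCh37, 5′ to 3′ on the coding (minus) strand, because it shows how a read separates the lactate receptor from its paralogs. Capitals mark the 22 bases of HCAR1 that differ from HCAR2. The windows lie at chr12:123214728-123214802, chr12:123187636-123187710 and chr12:123201090-123201164, inside the single coding exon of each gene.
HCAR1: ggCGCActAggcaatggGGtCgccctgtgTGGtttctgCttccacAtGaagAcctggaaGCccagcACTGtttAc
HCAR2: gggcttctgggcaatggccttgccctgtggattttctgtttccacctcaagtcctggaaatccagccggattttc
HCAR3: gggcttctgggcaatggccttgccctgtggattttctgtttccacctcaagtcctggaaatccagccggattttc

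The baseline repertoire in shNT was dominated by 3 receptors. ADORA2B, the low-affinity Gs-coupled adenosine receptor, averaged 48.3 ± 2.70 FPKM (SD, n = 3), LPAR1, a receptor for LPA, 29.8 ± 1.24 FPKM and S1PR3, a receptor for S1P, 15.1 ± 0.518 FPKM. These 3 genes made up 84.6% of the 110 FPKM that the 37 genes summed to. ADORA2B was above 86.0% of all tested genes and S1PR3 above 64.4%. Their ranges over the shNT libraries did not touch, nor did that of S1PR3 touch that of the next gene, which was 4.74-fold lower.

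A middle class of 7 genes averaged between 1 and 10 FPKM in shNT. In descending order of mean these were S1PR5, PTGER4, P2RY11, P2RY2, LPAR2, PTGER2 and HCAR1, from 3.19 to 1.12 FPKM. Each overlapped with the next in its shNT range, so the order of neighbours is not resolved by 3 libraries. S1PR5 and PTGER4 were nevertheless above P2RY2, LPAR2, PTGER2 and HCAR1 in every shNT library. HCAR1, the receptor the study set out to silence, had the lowest mean of the 10 receptors at or above 1 FPKM, although its range overlapped with that of PTGER2, and was above 19.8% of the tested genes.

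S1PR2, ADORA1, P2RY6, ADRB1, GPR132, P2RY1 and S1PR1 passed the filter with shNT means of 0.851, 0.458, 0.439, 0.280, 0.241, 0.132 and 0.110 FPKM. The other 20 receptors did not reach 0.1 FPKM in at least 3 libraries and were not tested. HCAR3, SUCNR1 (succinate), OXGR1 (2-oxoglutarate), FFAR3 (short-chain fatty acids), GPR84 (medium-chain fatty acids), PTGER3, ADRA2A and LPAR6 were listed at 0 in all 6 libraries. HCAR2, FFAR2, FFAR4, GPR4, ADORA2A, ADORA3 and LPAR3 were above 0 in 1 library only, and FFAR1, GPR65, PTGER1, ADRA2C and LPAR5 in at least 2. The highest of these values was 0.222 FPKM, for ADORA2A in shGPR81 replicate 2. None of the receptors for dicarboxylates, and none of the free fatty acid receptors or GPR84, was therefore tested.

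A listed 0 does not show that a transcript is absent. LPAR6 lies within RB1, on the opposite strand, and RB1 was at 30.7 FPKM in shNT. Of the 75-base words of the longest transcript, 86.6% in ADORA2A recur in the readthrough transcript SPECC1L-ADORA2A, 59.6% in FFAR3 recur in GPR42, and 62.7% in P2RY11 recur in the readthrough PPAN-P2RY11. The values of these receptors are uncertain, since how the authors divided such reads is not given in the sources used here. For ADORA1, ADORA2B, LPAR1, LPAR2, P2RY6, PTGER2, PTGER4, S1PR3 and S1PR5 0 words recur in transcripts of other genes.

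**Figure D1:**
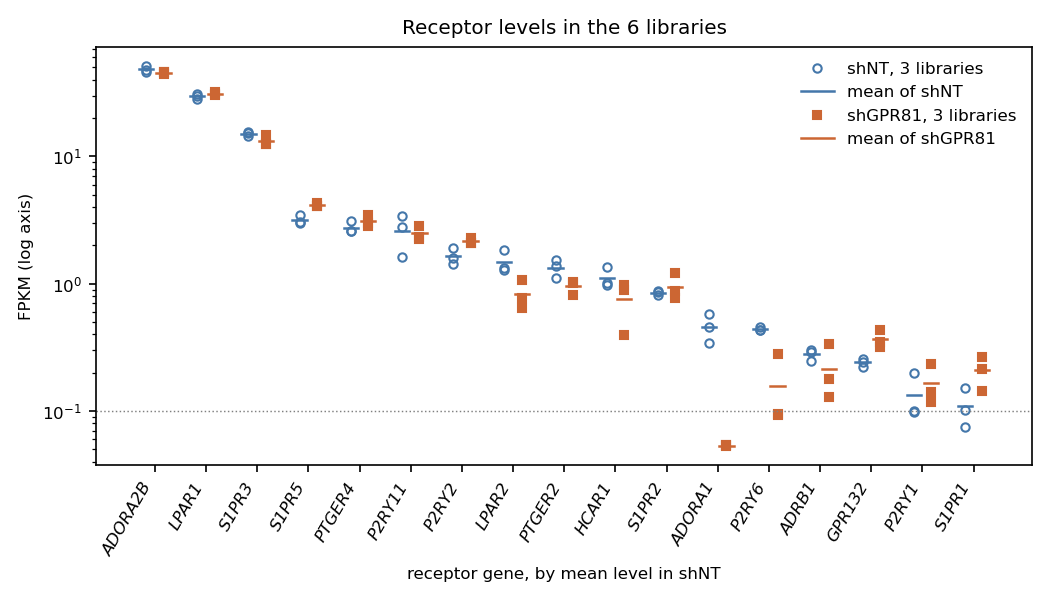
FPKM (log axis) of the 17 tested receptor genes in each library, ordered by mean level in shNT; open circles are the 3 shNT libraries, filled squares the 3 shGPR81 libraries, short lines the group means, and the dotted line the filter of 0.1 FPKM. ADORA2B, LPAR1 and S1PR3 stand above the rest in both groups, and ADORA1 averages 0.458 FPKM in shNT and 0.0534 FPKM in shGPR81.

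By main G protein, Gs-coupled receptors (8 genes) summed to 55.4 ± 3.61 FPKM (SD, n = 3) in shNT, of which ADORA2B gave 87.2%. Gi-coupled receptors (13 genes) summed to 1.75 ± 0.258 FPKM, of which HCAR1 gave 63.7%. Those with Gq as the main partner (7 genes) summed to 2.30 ± 0.222 FPKM, and those that use several G proteins (9 genes, among them all LPA receptors) to 50.8 ± 2.30 FPKM. The Gs class thus summed to far more FPKM than the Gi class. Both sums leave out the class that uses several G proteins, which holds LPAR1 and S1PR3. They therefore do not weigh all Gs coupling against all Gi coupling. In shGPR81 the Gi sum was 1.24, 1.25 and 0.633 FPKM against 1.49, 1.76 and 2.01 FPKM in shNT. The groups did not overlap, as for 25.6% of all tested single genes. HCAR1, the target of the hairpin, and ADORA1 together made up most of that sum. ADORA1 averaged 0.458 FPKM in shNT and 0.0534 FPKM in shGPR81, while the groups of HCAR1 overlapped. S1PR1, the other tested Gi gene, averaged 0.110 FPKM in shNT and 0.208 FPKM in shGPR81. The sum therefore does not show a fall of the Gi class as a whole. The Gs sum was 52.3 ± 0.218 FPKM in shGPR81 and overlapped with shNT.

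Next, shGPR81 was compared with shNT. Over all 14349 tested genes 1.59% were called lower and 0.955% higher, where a call needs both a fold change above 1.5 and an adjusted p below 0.05. Among the receptors ADORA1 was called lower and 0 were called higher. The adjusted p alone was passed by ADORA1 and no other receptor, against 5.13% of all tested genes, and 6 of the 17 had an unadjusted p under 0.05, against 19.5%. ADORA1 reached the filter in the shNT libraries only and so entered the test through the group in which it was high. Groups without overlap were found for 8 of the 17 tested receptors, 5 lower and 3 higher in shGPR81, where 25.6% of all tested genes had such groups. Their exact two-sided permutation p was 0.1 each, the smallest that 3 against 3 libraries allow. On the log2 scale the 17 receptors had a median change of -0.01 and all tested genes one of 0.01. No receptor lies on chromosome 20, where the median change on the log2 scale was -0.40 over 312 genes at 1 FPKM or more in shNT.

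ADORA1, the Gi-coupled high-affinity adenosine receptor, fell the most. It was at 0.340, 0.581 and 0.453 FPKM in shNT, against 0.0530, 0.0536 and 0.0536 FPKM in shGPR81. Every shNT library was above every shGPR81 library by several fold. In bulk RNA, fewer cells with the transcript and less transcript per cell cannot be told apart. In reads this was 12, 21 and 16 in shNT and 2 in each shGPR81 library, a ratio of 0.116 at equal depth (95% Clopper-Pearson interval 0.0407 to 0.272, counting error only). On the log2(FPKM + 0.1) scale, which understates the change of low genes, the change was -1.84 (SE 0.27, adjusted p = 0.0095, limma). The call held with the replicate number as a block (adjusted p = 0.0305) and without the filter (0.0077). It was lost without shNT replicate 2 (log2 fold change -1.69, adjusted p = 0.0540) and with a pseudocount of 1 FPKM, where the fold change fell under the threshold (-0.47).

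ADORA1 lies on the plus strand of chromosome 1 from 203059782 to 203136533 in GRCh37 and has 9 merged exons, of which 10.6% of bases are shared with an antisense gene. The 250 bases before a RefSeq start site of ADORA1 (chr1:203127476-203127725, GRCh38.p14, plus strand) are shown because it is the called receptor. They hold neither the cAMP response element TGACGTCA nor its core TGACG on either strand. For each gene 1 start site was used, and it need not be the outermost one. Of 27305 RefSeq promoters of this length, 1.77% hold the full element and 21.7% the core, which the full element contains. Among the 28 receptors with an entry, S1PR2 held the full element and 9 the core. The S1PR2 promoter (chr19:10231332-10231581, GRCh38.p14, minus strand) is printed beside that of ADORA1 for comparison, with capitals on the matches. S1PR2 was at 0.851 ± 0.0325 FPKM in shNT, against 0.949 ± 0.226 FPKM in shGPR81 (SD, n = 3, adjusted p = 0.79, limma). Which start site the reads came from is not known, and a match is not evidence that the site is used.
ADORA1: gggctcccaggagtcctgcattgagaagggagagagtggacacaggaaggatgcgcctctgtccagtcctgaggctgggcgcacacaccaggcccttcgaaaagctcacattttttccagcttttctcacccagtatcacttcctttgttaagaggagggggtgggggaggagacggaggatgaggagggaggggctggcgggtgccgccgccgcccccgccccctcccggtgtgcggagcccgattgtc
S1PR2: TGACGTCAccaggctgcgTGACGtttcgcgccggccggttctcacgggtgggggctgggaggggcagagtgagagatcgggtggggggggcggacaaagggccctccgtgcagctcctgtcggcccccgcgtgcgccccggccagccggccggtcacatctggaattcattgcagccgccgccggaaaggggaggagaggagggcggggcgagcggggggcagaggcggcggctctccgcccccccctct

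ADORA2B, the other adenosine receptor tested, did not pass the test. It was at 46.2, 47.4 and 51.3 FPKM in shNT, against 46.0, 45.7 and 44.6 FPKM in shGPR81. The groups did not overlap, but the gap between the nearest libraries was small. On the log2 scale it changed by -0.09 (SE 0.06, adjusted p = 0.46, limma). In shNT ADORA2B was 105-fold above ADORA1 in FPKM, so the sum over the adenosine receptors, 48.8 ± 2.72 FPKM in shNT and 45.6 ± 0.808 FPKM in shGPR81 (SD, n = 3), did not show the fall of ADORA1.

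**Figure D2:**
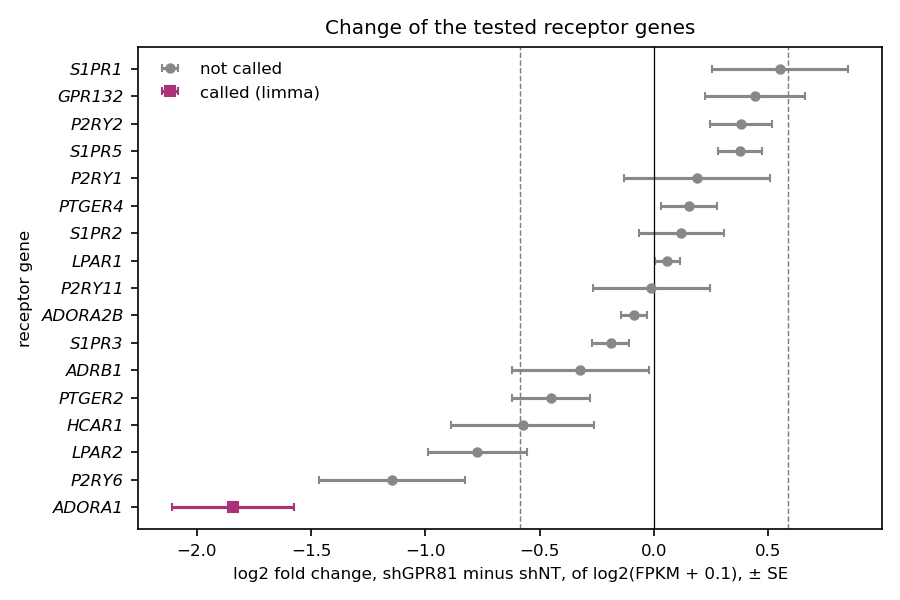
Log2 fold change (shGPR81 minus shNT, of log2(FPKM + 0.1)) of the 17 tested receptor genes, with its standard error as bars; dashed lines mark a fold change of 1.5 in either direction. ADORA1, at -1.84, is the called gene, and P2RY6 (-1.15) and LPAR2 (-0.77) lie past the lower line without a call.

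No nucleotide receptor passed the test, and the groups were apart in opposite directions for P2RY6 and P2RY2. P2RY6, the Gq-coupled receptor for UDP, was at 0.454, 0.432 and 0.430 FPKM in shNT, against 0.281, 0.0950 and 0.0938 FPKM in shGPR81. The shNT libraries lay close together, and shGPR81 replicate 1 was the nearest to them. The log2 fold change of -1.15 (SE 0.32) did not pass (adjusted p = 0.0946, limma). It passed without shGPR81 replicate 1 (-1.47, adjusted p = 0.0460, limma), but not when any other library was left out (adjusted p 0.134 to 0.259, limma). P2RY2, the receptor for ATP and UTP, was at 1.43, 1.60 and 1.90 FPKM in shNT, against 2.10, 2.08 and 2.29 FPKM in shGPR81. Every shGPR81 library was above every shNT library, and the change was 0.38 on the log2 scale (SE 0.14, adjusted p = 0.175, limma). P2RY2 and P2RY6 lie near each other on chromosome 11, from 72929326 to 72953472 and from 72975543 to 73016148. Of the words in P2RY2, 38.5% recur in an overlapping gene on the same strand. P2RY11, for ATP, was at 1.62, 3.40 and 2.79 FPKM in shNT, against 2.26, 2.34 and 2.86 FPKM in shGPR81, a wide spread within shNT. P2RY1, for ADP, was at 0.0975 to 0.200 FPKM in shNT and 0.118 to 0.233 FPKM in shGPR81, from 16 and 21 reads, a ratio of 1.25 at equal depth (95% Clopper-Pearson interval 0.620 to 2.55, counting error only).

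Of the prostaglandin E2 receptors the Gs-coupled PTGER4 and PTGER2 were tested, and neither passed. PTGER4 was at 2.58, 2.60 and 3.11 FPKM in shNT, against 2.996, 2.82 and 3.44 FPKM in shGPR81, with overlap between the groups (log2 fold change 0.15, SE 0.12, adjusted p = 0.58, limma). PTGER2 was at 1.12, 1.37 and 1.53 FPKM in shNT, against 1.01, 0.815 and 1.03 FPKM in shGPR81. Each shGPR81 library was below each shNT library, with a log2 fold change of -0.45 (SE 0.17) that did not pass (adjusted p = 0.201, limma). PTGER2 had 127 reads in shNT and 95 in shGPR81, a ratio of 0.710 at equal depth (95% Clopper-Pearson interval 0.539 to 0.934). PTGER1 and PTGER3, the Gq- and Gi-coupled members, were below the filter. Of the 3 adrenergic genes among the 37, ADRB1, a Gs-coupled receptor for noradrenaline, was tested. It gave 31 reads in shNT and 25 in shGPR81 (log2 fold change -0.32, SE 0.30, adjusted p = 0.64, limma). The Gi-coupled ADRA2A and ADRA2C were below the filter. Adrenergic receptors outside the 37 are not covered by these values. ADRA2C stood at 1 read in each shNT library and 1 in all of shGPR81.

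The LPA receptors were led by LPAR1, which was at 28.5, 30.0 and 30.9 FPKM in shNT, against 30.7, 31.9 and 30.5 FPKM in shGPR81. The change was 0.06 on the log2 scale (SE 0.05, adjusted p = 0.63, limma), and the groups overlapped. LPAR2 was at 1.28, 1.34 and 1.83 FPKM in shNT, against 1.07, 0.778 and 0.648 FPKM in shGPR81. Its groups did not overlap, and 28, 30 and 40 reads in shNT against 25, 18 and 15 in shGPR81 gave a ratio of 0.562 at equal depth (95% Clopper-Pearson interval 0.399 to 0.786). The log2 fold change of -0.77 (SE 0.22) was past the fold threshold but not past that on the adjusted p (0.0986, limma). LPAR3, LPAR5 and LPAR6 were not tested. LPAR1 so outweighed LPAR2 that the summed LPA receptors were at 31.4 ± 1.57 FPKM in shNT and 31.9 ± 0.798 FPKM in shGPR81 (SD, n = 3).

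**Figure D3:**
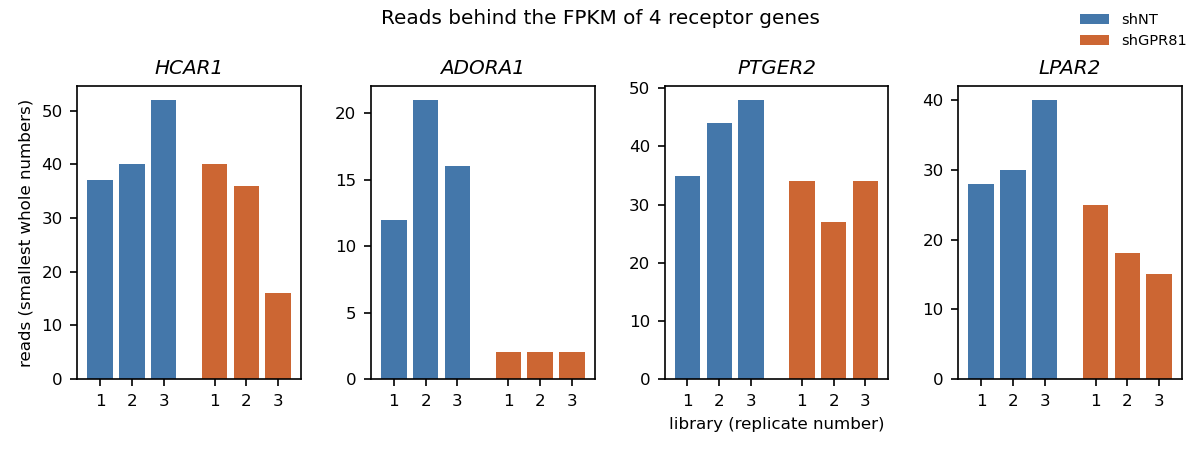
Reads that the FPKM of 4 receptor genes stand for (the smallest whole numbers that give the values, not corrected for depth), 1 bar per library with its replicate number, blue for shNT and orange for shGPR81; the axes differ between panels. ADORA1 is at 2 reads in each shGPR81 library against 12 to 21 in shNT, while HCAR1 is low in shGPR81 replicate 3 only.

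No S1P receptor passed the test. S1PR5 was at 3.02, 3.05 and 3.50 FPKM in shNT, against 4.11, 4.27 and 4.11 FPKM in shGPR81, so that every shGPR81 library was above every shNT library. Its log2 fold change of 0.38 (SE 0.10) had an adjusted p of 0.0717 (limma), with a fold change under 1.5. S1PR3, the most abundant of the family, was at 14.5, 15.4 and 15.4 FPKM in shNT, against 12.5, 12.5 and 14.8 FPKM in shGPR81. It overlapped through shGPR81 replicate 3 (log2 fold change -0.19, SE 0.08, adjusted p = 0.257, limma). S1PR1, the Gi-coupled receptor that guides lymphocyte egress, rested on 13 reads in shNT and 26 in shGPR81 (log2 fold change 0.55, SE 0.30, adjusted p = 0.38, limma).

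Among the proton sensors GPR132, which also binds oxidized fatty acids, was the tested one. It was at 0.243, 0.257 and 0.223 FPKM in shNT, against 0.436, 0.345 and 0.318 FPKM in shGPR81. All shGPR81 libraries were higher, and the log2 fold change of 0.44 (SE 0.22) did not pass (adjusted p = 0.33, limma). GPR65 stood at 13 reads over the shNT libraries and 5 over shGPR81, all 5 in replicate 2, and GPR4 was above 0 in 1 library.

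The genes that make, move or remove these ligands and that act behind the receptors were then read from lists compiled by hand. Of 79 such genes 62 were tested, 3 were called lower and 0 higher, against 1.59% and 0.955% of all tested genes. Their median log2 fold change was -0.03, and 35 of the 62 were below 0. In the list for prostaglandin E2, SLCO2A1, which carries prostaglandins into cells for degradation, was at 0.812, 1.06 and 1.08 FPKM in shNT, against 0.303, 0.358 and 0.341 FPKM in shGPR81 (log2 fold change -1.31, SE 0.19, adjusted p = 0.0088, limma). HPGD, the enzyme that inactivates prostaglandin E2, was at 3.55, 3.05 and 2.81 FPKM in shNT, against 2.02, 1.58 and 1.87 FPKM in shGPR81 (log2 fold change -0.75, SE 0.14, adjusted p = 0.0237, limma). Both genes act in the clearance of the ligand of PTGER2 and PTGER4. In each the groups did not overlap, as in 25.6% of all tested genes. PTGES of the same list, which makes that ligand, was lower too, with a fold change under 1.5 (values below).

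GRK3, a kinase that phosphorylates active receptors and is listed under its older symbol ADRBK2, was also called. It was at 0.844, 0.959 and 0.908 FPKM in shNT, against 0.352, 0.380 and 0.364 FPKM in shGPR81 (log2 fold change -1.11, SE 0.16, adjusted p = 0.0103, limma). None of the 3 was called without shNT replicate 2, where their adjusted p was 0.0541, 0.0937 and 0.0598 in the order given here. GRK3 also lost its call without shGPR81 replicate 1 (adjusted p = 0.0506), and HPGD without any 1 of the shGPR81 libraries (0.0622 to 0.0912). With a pseudocount of 1 FPKM the fold change of all 3 was under the threshold.

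No gene was called in the lists of G protein alpha subunits (11 tested), adenylyl cyclases (4), RGS proteins that switch G proteins off (12), extracellular adenosine and nucleotides (7), LPA (4), S1P (5) and lactate (4). Of 36 related receptors outside the 37 described, 9 were tested and 0 were called; 2 of the 9 had a log2 fold change below 0 (median 0.31). The following 2 genes, named after their values were seen, passed the adjusted p with a fold change under 1.5. NT5E, the ectoenzyme CD73 that makes adenosine outside the cell, averaged 121 ± 5.53 FPKM in shNT and 160 ± 1.95 FPKM in shGPR81 (SD, n = 3, adjusted p = 0.0045, limma). PTGES, the inducible prostaglandin E2 synthase, averaged 199 ± 15.9 and 150 ± 1.96 FPKM (SD, n = 3, adjusted p = 0.0131, limma). With 1 library left out NT5E still passed the adjusted p each time (0.0031 to 0.0376, limma). PTGES did not pass without shNT replicate 2 (0.0723) or without any 1 of the shGPR81 libraries (0.0524 to 0.0745, limma).

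**Figure D4:**
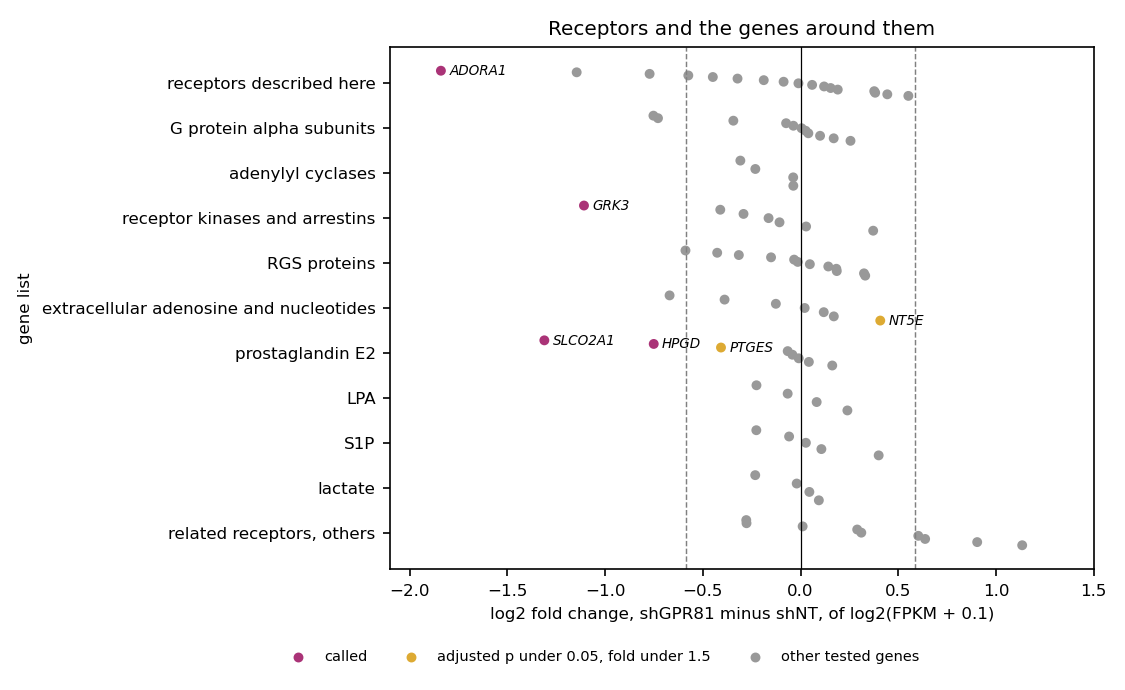
Log2 fold change (shGPR81 minus shNT, of log2(FPKM + 0.1)) of each tested gene, 1 row per list: the 17 receptors, the signalling proteins, the genes for supply or removal of each named ligand, and the other receptors. Dashed lines mark a fold change of 1.5; purple points are called, yellow points pass the adjusted p with a smaller fold change, and gray points are the other tested genes.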

How the data were processed

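Total RNA of 3 shNT and 3 shGPR81 libraries was sequenced as single-end reads of 75 bases (TruSeq stranded mRNA). Per the submitters' processing notes the authors used TopHat2 2.0.13, Bowtie2 2.2.3, SAMtools 0.1.19 and Cuffnorm 2.2.1. The study's methods name hg19 (GRCh37) and the series' text mm10; the symbols are human, so GRCh37 was used. The deposited values are FPKM, 1 per gene symbol and library; the annotation and the strand setting are not given in the sources used here. The authors' group comparisons were made on read counts, which were not used here.

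The test was limma 3.58.1 (lmFit, eBayes with trend, R 4.3.3) on log2(FPKM + 0.1). It covered 14349 genes, those that reached 0.1 FPKM in 3 or more of the 6 libraries, in 1 fit without a block, with Benjamini-Hochberg adjustment over all tested genes. The test was first run on simulated data. Calls needed a fold change above 1.5 beside an adjusted p below 0.05. Depth is not given with FPKM. Where a gene's values, scaled by library, were all multiples of a common step (relative tolerance 0.0001, at most 300) and the step was within 2.5-fold of what the longest GENCODE transcript gives, the multiples were taken as reads. That gave reads for 3413 genes, 12 receptors among them, relative depths of 1 to 1.07 and about 12184145 to 13045570 reads per library. Intervals and read ratios cover counting error only.

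Replicate numbers did not pair the libraries: the correlations between deviations of same-numbered libraries were 0.120, 0.0223 and 0.00577. Positions are those of GENCODE 44 on GRCh37 and promoters those of RefSeq on GRCh38.p14. The receptors and gene lists were chosen with earlier results of these data known. The text gives values in every library for the HCAR genes, the 8 receptors highest in shNT and receptors that were called, had an unadjusted p under 0.05 or had groups without overlap, and names called genes of the other lists. Alternatives were the omission of each library, a replicate block, filters of 1 FPKM and none, pseudocounts of 1 and 0.01 FPKM, median centring, quantile normalization and no fold threshold. A gene of the lists is not reported here.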

Additional observations from a re-analysis of the deposited data

How the results depend on the processing

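HCAR1 stayed uncalled and below 0 under every alternative that tested it (the filter of 1 FPKM leaves it out), with a log2 fold change of -0.78 to -0.22 when 1 library was left out. ADORA1 stayed below 0 in all 12 of its alternatives (-2.85 to -0.47). The number of receptors called lower was 1, became 0 with a filter of 1 FPKM (which leaves ADORA1 untested) or a pseudocount of 1 FPKM, and was 0 to 2 with 1 library left out; no receptor was called higher under any alternative. Of the genes in the other lists 3 were called lower, 1 with the filter of 1 FPKM, 0 with the pseudocount of 1 FPKM and 0 to 5 with 1 library left out, and 1 was higher without the fold threshold. Among all tested genes 228 were lower and 137 higher, 142 and 75 with the pseudocount of 1 FPKM, 440 and 296 without the fold threshold, and 121 to 256 and 65 to 152 with 1 library left out. With the replicate number as a block 197 genes were lower and 115 higher, ADORA1 kept its call (adjusted p = 0.0305), no other receptor gained one, and 4 genes of the other lists were called lower. The sign of P2RY11 (-0.31 to 0.21) and of S1PR2 (-0.047 to 0.24) turned when single libraries were left out. FPKM below about 0.5 rest on few reads here, which limits what can be said of ADORA1, P2RY6, ADRB1, GPR132, P2RY1 and S1PR1.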
